A study of Homo sapiens with 24 samples.

Results

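The genes described here are ATF4 and the genes of the amino acid response, 35 in all, followed in LNCaP prostate cancer cells given a microRNA (miR-205, miR-203 or miR-130a) or a scramble control. Each gene was measured by the probe set that is annotated to it alone, and where several exist by the one with the highest mean over the 24 arrays. Of the 35 genes, 33 had such a probe set. The probe sets of MARS1 carry 2 gene symbols and SESN2 had none under this rule, so the levels of neither are analysed here. SLC7A5, with a mean of 2.72 on the log2 scale, lay below the filter of 2.85 (the median of all probe set means), which left 32 of the 6782 genes tested: 8 of 8 enzymes, 4 of 5 transporters, 10 of 11 tRNA ligases and tRNA export factors, and 10 of 11 regulators and stress effectors. On its 24 arrays SLC7A5, the light chain of a leucine transporter, lay between 2.38 and 3.19, close to the lowest values of the table. The list was chosen by function and selected on measured values too, since the lower levels of ASNS, DDIT3, TRIB3, ATF4, CHAC1, PCK2 and SLC7A11 in total RNA were already known, so the members' total RNA values below are a description and carry no test.

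LNCaP is an androgen-responsive human prostate cancer line. Cells were nucleofected with 2.5 µg of plasmid carrying miR-205, miR-203, miR-130a or a scramble sequence, so the control cells also received a plasmid and an electric pulse. From each of the 4 transfections both total RNA and RNA recovered with an antibody to AGO2, the Argonaute protein that carries microRNAs to their messages, were put on Affymetrix oligonucleotide arrays, with 2 µg of RNA and 3 arrays in each of the 8 groups. The arrays of a group are labelled as biological replicates, but separate cultures are not stated, so the p-values below measure the spread between these arrays. The time between transfection and harvest is not given in the sources used here.

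ATF4 is a leucine zipper transcription factor whose translation rises when the initiation factor eIF2 is phosphorylated, for example by the kinase GCN2 when uncharged tRNA builds up. Paired with C/EBP proteins, it binds composite C/EBP-ATF elements and raises genes that make, import and activate amino acids. In cancer cells this programme supplies serine, glycine, asparagine and cystine, and it also raises regulators such as DDIT3, TRIB3 and CHAC1 that limit growth or survival under stress.

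The mature sequences of the microRNAs matched in RefSeq (GRCh38.p14) are shown because their seeds (bases 2 to 8, in capitals) define what AGO2 can be led to. The 2 seeds differ from each other, and miR-130a is named only.
hsa-miR-203a-3p: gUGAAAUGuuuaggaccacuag
hsa-miR-205-5p: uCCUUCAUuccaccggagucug

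The promoters of the same genes were searched for the 8 letters TGATGNAA on both strands, the core of the C/EBP-ATF composite element, in the window from 250 bases before to 50 bases after the annotated start. RefSeq held a window for 29 of the 35 members, with none for PSPH, SHMT2, SLC7A11, YARS1, EIF4EBP1 and NUPR1. The letters were present for 14 of these 29 genes, or 48.3%, against 1217 of 27305 genes with a window, or 4.46%. By role, they were present for 7 of 10 tRNA ligases and tRNA export factors, 3 of 4 transporters, 2 of 6 enzymes and 2 of 9 regulators. The members were chosen as known ATF4 targets, so this share is a property of the list and not a test of it. In 9 of the 14 the letters were TGATGCAA on either strand, and in 9 they lay within 50 bases of the start. The stretches that lie wholly before the start site are printed with the match in capitals, read along the gene's strand, so a match on the other strand appears as its reverse complement. They show the same letters before 2 enzymes (ASNS and CHAC1), a transporter (SLC1A5), 2 tRNA ligases (GARS1 and AARS1) and 2 regulators (ATF3 and CEBPG).
ASNS, chr7:97872449-97872496, minus strand, match at -68: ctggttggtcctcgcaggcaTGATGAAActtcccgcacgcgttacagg
CHAC1, chr15:40953242-40953289, plus strand, match at -209: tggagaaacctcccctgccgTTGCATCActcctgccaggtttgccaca
SLC1A5, chr19:46784884-46784931, minus strand, match at -97: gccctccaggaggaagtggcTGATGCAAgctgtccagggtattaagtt
GARS1, chr7:30594825-30594872, plus strand, match at -33: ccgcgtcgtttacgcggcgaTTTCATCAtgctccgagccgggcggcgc
AARS1, chr16:70289666-70289713, minus strand, match at -187: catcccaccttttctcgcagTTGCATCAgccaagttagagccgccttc
ATF3, chr1:212565196-212565243, plus strand, match at -191: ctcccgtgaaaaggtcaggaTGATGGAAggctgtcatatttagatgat
CEBPG, chr19:33374051-33374098, plus strand, match at -42: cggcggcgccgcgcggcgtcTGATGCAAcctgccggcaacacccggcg

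**Figure D1:**
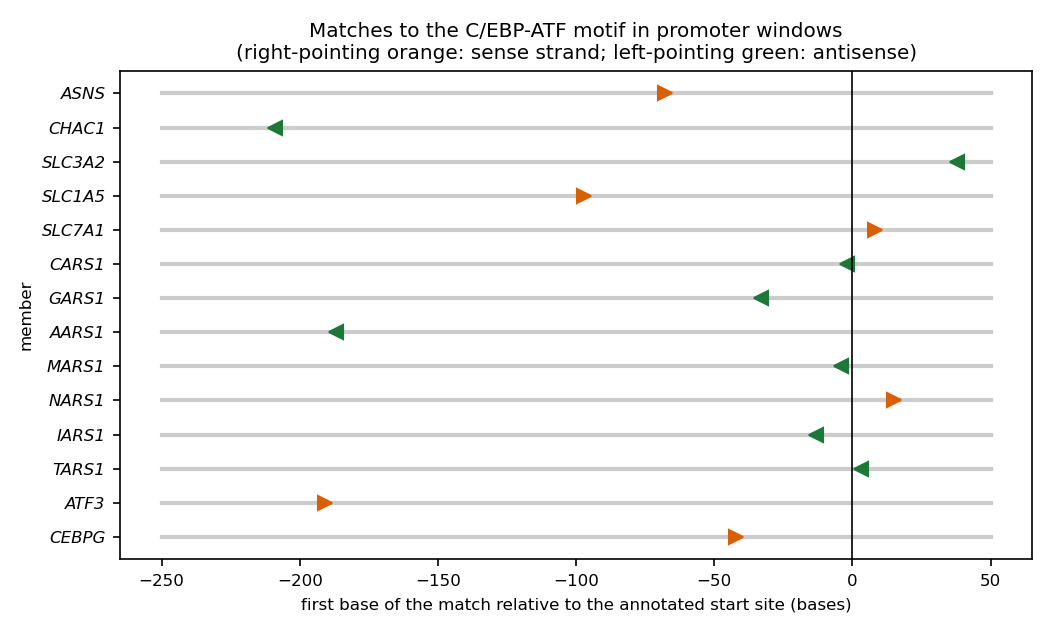
Matches to TGATGNAA in the promoter windows of the 14 members that hold it. The x axis is the position of the first base of the match relative to the annotated start (bases), grey bars span the window, and colour with arrow direction gives the strand. In 9 of the 14 the match lies within 50 bases of the start.

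The same letters were present for 0 of 7 other cytosolic tRNA ligases, 1 of 14 mitochondrial ligases, 1 of 14 genes of the eIF2 cycle, 1 of 16 endoplasmic reticulum chaperones and 6 of 21 other genes of amino acid metabolism or linked to ATF4. Members with and without the letters were set side by side, with no test of a difference. In total RNA after miR-205 the median log2 difference from scramble was -0.98 over the 13 tested members with the letters and -0.90 over the 13 without. In either set 11 of 13 were called lower, beside 13.3% of all tested genes. After miR-203 the medians were -0.83 and -0.66, and after miR-130a -0.74 and -0.93. The widest gap among the 10 comparisons was in AGO2-bound minus total RNA after miR-203. The median there was -0.51 with the letters (4 called higher and 8 lower) and 0.29 without (7 higher and 5 lower). Of all tested genes 34.7% were called higher and 37.2% lower in that comparison. A match is a description of the sequence and shows no binding.

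The deposited table held 22277 probe sets. Its lowest value took 3 levels, 2.34733 for miR-205 and scramble (12 arrays), 2.34684 for miR-203 (6 arrays) and 2.3449 for miR-130a (6 arrays). No label or header says whether the groups were normalized together or apart. Where miR-203 or miR-130a is set against scramble, a difference in processing that goes with these levels and the transfection cannot be told apart. The arrays of miR-205 and scramble, and the AGO2-bound and total RNA arrays of each transfection, have the same lowest value. Luminal prostate markers were present, with KLK3 at 10.4 to 12.3 on the log2 scale in total RNA, although FOLH1 was low (3.23 to 4.75). Of the basal and mesenchymal markers measured, KRT5, KRT14, KRT15, CD44, AXL and CAV1 lay between 2.34 and 2.52 in total RNA and VIM between 2.64 and 3.39. AGO2-bound arrays varied more than total RNA arrays. The SD of the spiked controls within a group was 0.33 to 0.91 in AGO2-bound RNA and 0.035 to 0.093 in total RNA. The 3' minus 5' difference of ACTB, a sign of RNA length, was 3.40 ± 0.45 (SD, n = 3) for AGO2-bound scramble, 2.55 ± 0.30 for miR-130a, 2.68 ± 0.34 for miR-203 and 3.45 ± 0.43 for miR-205, against 2.07 to 2.24 in total RNA. For GAPDH it was 1.40 ± 0.17 for AGO2-bound scramble, 1.25 ± 0.048 for miR-130a, 0.77 ± 0.15 for miR-203 and 1.55 ± 0.17 for miR-205. In total RNA it was 0.70 to 0.80. The part of these differences in the AGO2 results below was not tested.

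In total RNA, nearly all of the 32 members tested lay lower after each of the 3 microRNAs than after scramble. After miR-205 28 of 32 members were past the call rule as lower and 0 as higher, where 13.3% of all tested genes were called lower and 10.1% higher, and the median log2 difference was -0.88 against -0.01 over all genes. After miR-130a 28 were lower and 0 higher (background 13.3% lower and 15.9% higher), with a median of -0.74 against 0.01. After miR-203 27 were lower and 1 higher (background 19.8% lower and 19.8% higher), with a median of -0.60 against 0.01. All 3 arrays lay below all 3 scramble arrays for 31 members after miR-205, 30 after miR-130a and 28 after miR-203. Of all tested genes 20.1%, 21.7% and 24.1% did so, in the same order. The 3 comparisons share the same scramble arrays, so they are not independent of each other, and since the choice of members used these contrasts nothing is read from the counts. Members called lower in all 3 numbered 22 of 32, where 2.15% of all tested genes were. Of the 84 calls 9 were lost when 1 array was left out, namely NARS1, PSPH and SLC7A1 after miR-130a, CARS1, EPRS1, PSPH and YARS1 after miR-203, and NARS1 and TARS1 after miR-205. With each array centred on its median, the share of called genes that were higher after miR-130a went from 54.5% to 41.7%, while the members had 30 lower and 0 higher.

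The arrays of a group were alike in total RNA. The median of the 32 members relative to the scramble mean was -0.91, -0.91 and -0.88 after miR-205, array by array, and all 32 members lay below the scramble mean on each. It was -0.79, -0.70 and -0.76 after miR-130a, with 30 members below on each array, and -0.56, -0.60 and -0.66 after miR-203, with 29 to 31 below. In bulk RNA, fewer cells with an active response and less of each message per cell cannot be told apart.

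**Figure D2:**
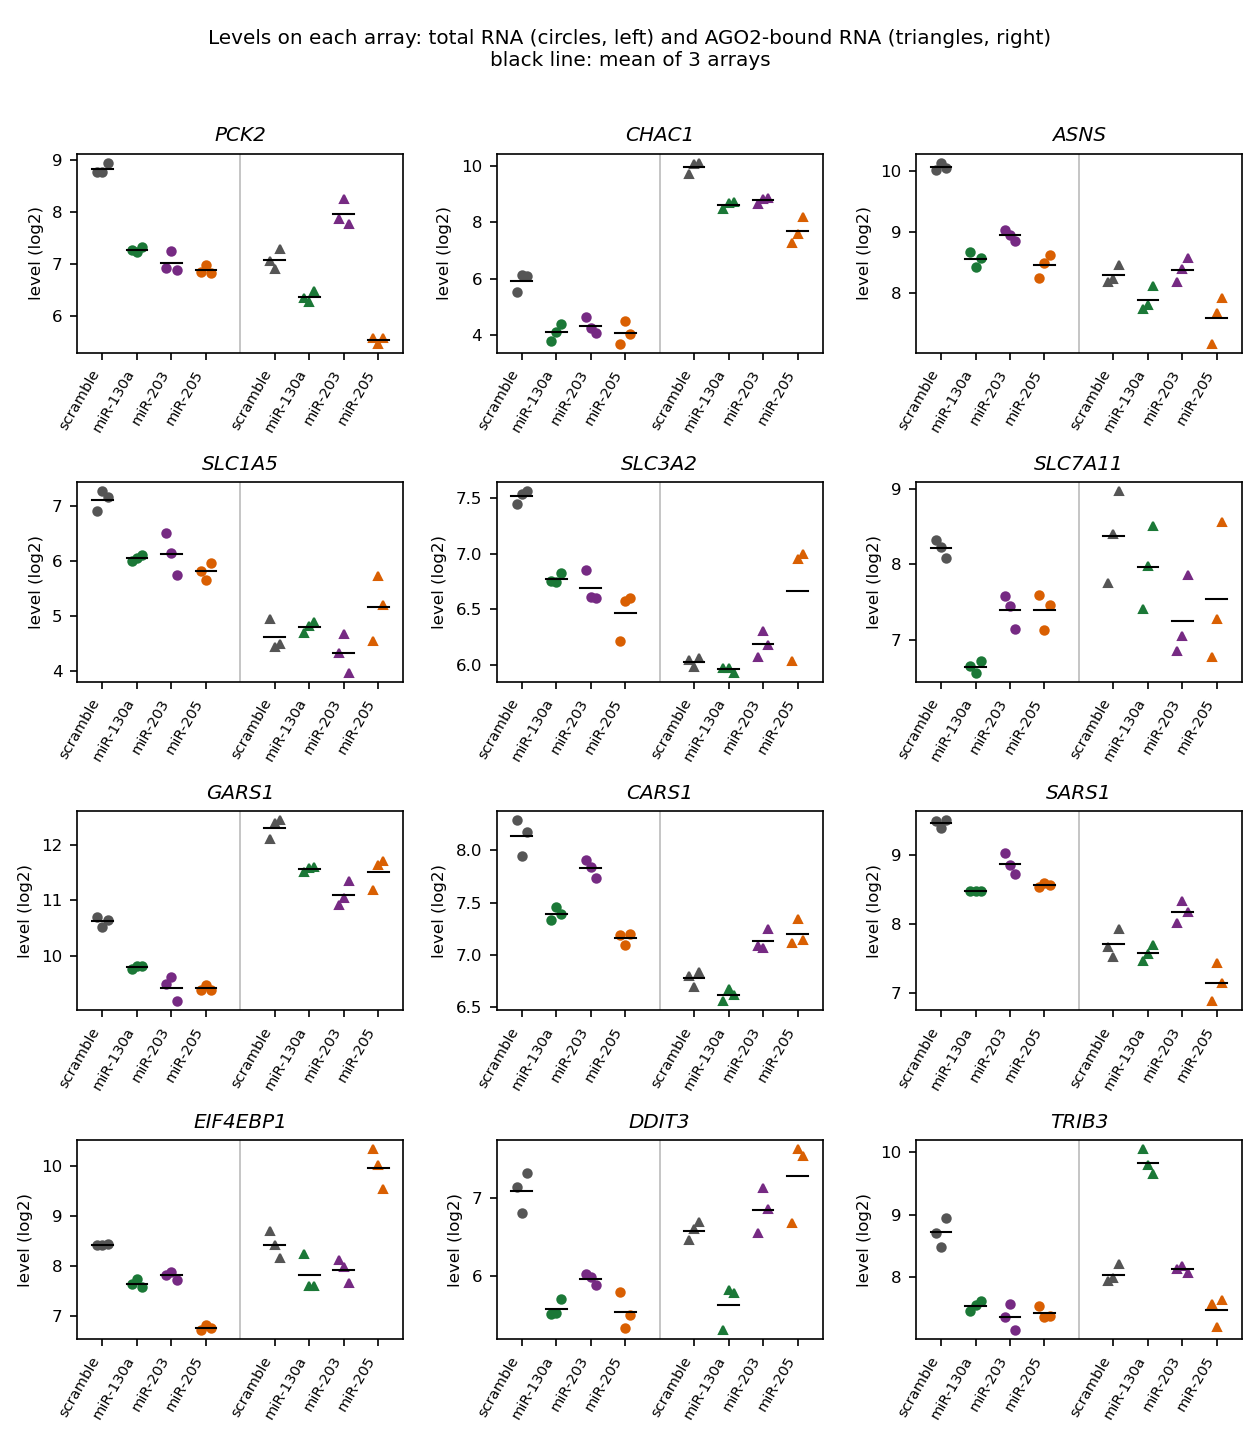
Levels (log2) of the 12 members with the largest differences by role, on every array. Circles are total RNA and triangles AGO2-bound RNA, by transfection on the x axis, and black lines are means of 3 arrays. In each panel the total RNA arrays of each microRNA all lie below the scramble arrays, whereas the triangles follow no common order.

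The roles ranked differently by microRNA. After miR-205 the enzymes had the lowest median, -1.19, beside -0.94 for the transporters and -0.89 for the regulators. After miR-203 the transporters were lowest (-0.90, with the enzymes at -0.76 and the regulators at -0.57), and after miR-130a the regulators (-0.95, with the transporters at -0.90 and the enzymes at -0.79). Among the enzymes, PCK2, the mitochondrial phosphoenolpyruvate carboxykinase (probe set 202847_at), read 8.77, 8.77 and 8.96 after scramble, 6.85, 6.98 and 6.83 after miR-205, 6.93, 7.26 and 6.89 after miR-203 and 7.27, 7.24 and 7.33 after miR-130a. No array of a microRNA reached the scramble arrays, and the log2 differences were -1.94 ± 0.10 (SE), -1.80 ± 0.10 and -1.55 ± 0.10, in the same order. CHAC1, a glutathione-degrading enzyme (219270_at), read 5.54, 6.11 and 6.11 after scramble, 3.69, 4.48 and 4.02 after miR-205, 4.63, 4.25 and 4.06 after miR-203 and 3.80, 4.12 and 4.38 after miR-130a. Its groups did not overlap with scramble either, and the differences were -1.86 ± 0.23, -1.60 ± 0.23 and -1.82 ± 0.23. ASNS, which makes asparagine (205047_s_at), read 10.02, 10.14 and 10.05 after scramble and 8.24, 8.50 and 8.62 after miR-205. After miR-130a it read 8.67, 8.43 and 8.58, and after miR-203 9.03, 8.95 and 8.85, which was the smallest of its 3 differences (-1.13 ± 0.11).

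The serine and folate enzymes were lower by less. PHGDH and PSAT1, the first steps of serine synthesis, differed by -1.16 ± 0.11 and -1.21 ± 0.12 after miR-205, and by -0.66 to -0.85 after the other microRNAs. SHMT2 and MTHFD2, which carry serine carbon into the mitochondrial folate pool, differed by -0.69 ± 0.092 and -1.11 ± 0.072 after miR-205. The last step of serine synthesis, PSPH, stood apart from the other enzymes. It differed by -0.57 ± 0.10 after miR-205 and by -0.36 ± 0.10 after miR-130a, but read 7.98, 7.94 and 8.16 after miR-203, all above the scramble arrays at 7.59, 7.87 and 7.80. It was past the call rule as higher, but no longer so without miR-203 replicate 1 (0.30), 2 (0.31) or 3 (0.21) or scramble replicate 1 (0.19) or 3 (0.30). A further PSPH probe set differed by -0.09 after miR-203.

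All 4 transporters tested were past the call rule as lower after miR-203 and miR-130a and 3 after miR-205, and the microRNAs ordered them differently. SLC1A5, the glutamine carrier (208916_at), read 6.91, 7.26 and 7.16 after scramble, 5.81, 5.66 and 5.96 after miR-205, 6.01, 6.05 and 6.11 after miR-130a and 6.51, 6.15 and 5.74 after miR-203. SLC3A2, the heavy chain shared by several amino acid exchangers (200924_s_at), read 7.45, 7.53 and 7.56 after scramble, 6.21, 6.57 and 6.60 after miR-205, 6.76, 6.74 and 6.82 after miR-130a and 6.85, 6.61 and 6.60 after miR-203. No array of either gene reached the scramble arrays, and the differences were -1.30 ± 0.16 and -1.05 ± 0.11 after miR-205. SLC7A11, the cystine importer (209921_at), read 8.33, 8.23 and 8.08 after scramble and 6.66, 6.57 and 6.72 after miR-130a, a difference of -1.57 ± 0.13, and differed by -0.82 ± 0.13 after either of the other microRNAs. SLC7A1, the arginine and lysine carrier, had its largest difference after miR-203, -1.95 ± 0.14, against -0.48 ± 0.14 after miR-130a and -0.40 ± 0.14 after miR-205, where it was not past the call rule.

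**Figure D3:**
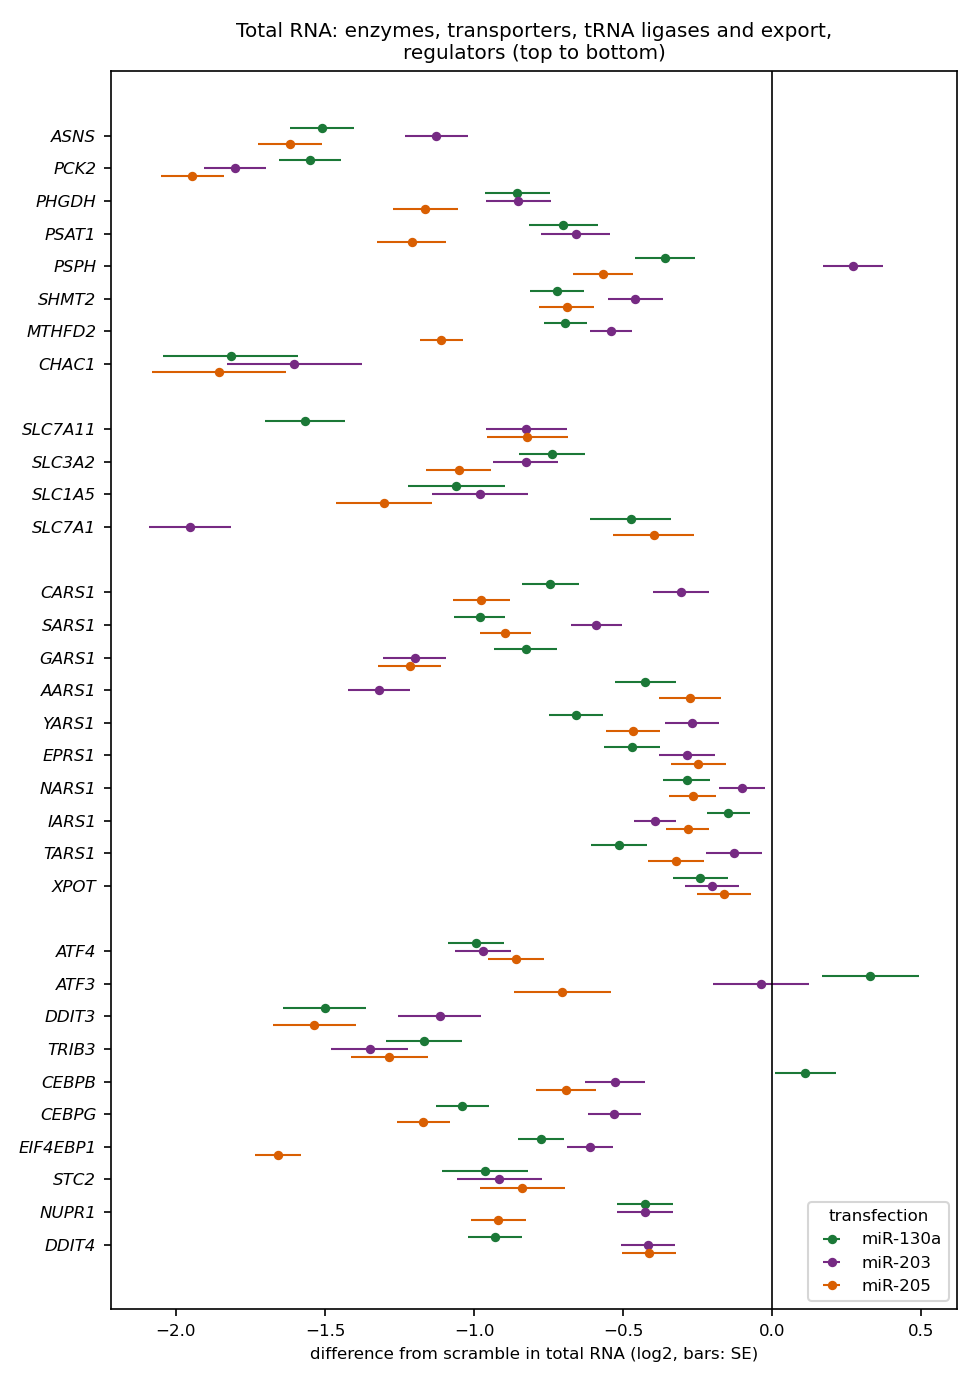
Log2 difference from scramble in total RNA of the 32 members (y axis, by role) after each microRNA (colour), with bars of 1 SE. All but 1 of the points after miR-203, all after miR-205 and 30 of 32 after miR-130a lie left of 0. The median of the tRNA ligases and tRNA export factor lies closer to 0 than that of the enzymes.

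The tRNA ligases and tRNA export factor were lower by smaller amounts, with medians of -0.30 after miR-205, -0.30 after miR-203 and -0.49 after miR-130a. GARS1, the glycyl-tRNA ligase (208693_s_at), read 10.70, 10.51 and 10.65 after scramble and 9.37, 9.47 and 9.38 after miR-205, a difference of -1.22 ± 0.11. CARS1, the cysteinyl ligase (212971_at), read 8.29, 7.94 and 8.17 after scramble and 7.19, 7.10 and 7.20 after miR-205, and SARS1, the seryl ligase (200802_at), read 9.50, 9.39 and 9.51 against 8.54, 8.60 and 8.57. The difference of CARS1 after miR-203, -0.31 ± 0.095, was 0.05 with the mean of its probe sets, because another of its probe sets differed by 0.40. It also lost its call without miR-203 replicate 3 (-0.26) or scramble replicate 1 (-0.23) or 3 (-0.29). AARS1, the alanyl ligase, differed by -1.32 ± 0.10 after miR-203 and by only -0.28 ± 0.10 after miR-205, whereas IARS1, the isoleucyl ligase, and XPOT, which exports tRNA from the nucleus, stayed within -0.15 to -0.39 of scramble after all 3. XPOT was past the call rule after none of them.

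Among the regulators, ATF4 itself (200779_at) read 10.21, 10.31 and 10.40 after scramble, 9.42, 9.48 and 9.43 after miR-205, 9.47, 9.37 and 9.17 after miR-203 and 9.21, 9.35 and 9.37 after miR-130a. Its message was thus lower by a similar amount in all 3, -0.86 ± 0.093, -0.97 ± 0.093 and -0.99 ± 0.093. EIF4EBP1, which holds back cap-dependent translation (221539_at), read 8.42, 8.41 and 8.43 after scramble and 6.71, 6.81 and 6.76 after miR-205, with differences of -1.66 ± 0.077 there, -0.61 ± 0.077 after miR-203 and -0.78 ± 0.077 after miR-130a. DDIT3, the stress factor CHOP (209383_at), read 7.14, 6.80 and 7.31 after scramble, 5.80, 5.34 and 5.50 after miR-205, 6.03, 5.98 and 5.89 after miR-203 and 5.51, 5.53 and 5.71 after miR-130a. TRIB3, a pseudokinase induced by ATF4 and DDIT3 (218145_at), read 8.71, 8.48 and 8.95 after scramble, and its 9 arrays of microRNA-transfected cells lay between 7.15 and 7.62. ATF3 and CEBPB departed from the others after miR-130a. ATF3 differed by 0.33 ± 0.16 and CEBPB by 0.11 ± 0.10 there, neither past the call rule, while after miR-205 they differed by -0.70 ± 0.16 and -0.69 ± 0.10.

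Other genes of the pathway were counted the same way in total RNA. Of all tested genes 10.1% were called higher and 13.3% lower after miR-205. These shares were 19.8% and 19.8% after miR-203, and 15.9% and 13.3% after miR-130a. Of 7 other cytosolic tRNA ligases tested, 1 was called higher and 1 lower after miR-205, 0 and 3 after miR-203 and 2 and 0 after miR-130a. Of 9 mitochondrial ligases, 0 were called after miR-205, 6 higher and 1 lower after miR-203, and 2 higher and 1 lower after miR-130a. Of 13 genes of the eIF2 kinases and eIF2 cycle, 0 were higher and 1 lower after miR-205, 5 and 1 after miR-203 and 3 and 1 after miR-130a, among them EIF2AK2, the kinase activated by double-stranded RNA, at 1.20 ± 0.10 after miR-130a. Of 20 other genes of amino acid metabolism or linked to ATF4, 0 were called higher and 7 lower after miR-205, 3 and 6 after miR-203 and 1 and 5 after miR-130a, with medians of -0.20, -0.02 and -0.27. Among them the stress cytokine GDF15 was at -1.33 ± 0.10 after miR-205. Of 15 endoplasmic reticulum chaperones, 0 were higher and 6 lower after miR-205, 2 and 3 after miR-130a and 0 and 12 after miR-203, where MANF, a secreted chaperone-like factor, differed by -1.36 ± 0.094.

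In AGO2-bound RNA the members moved in both directions. After miR-205 9 of 32 rose and 17 fell against AGO2-bound scramble (limma, Benjamini-Hochberg adjusted p under 0.05), where 20.4% of all tested genes rose and 23.7% fell, and the median log2 difference was -0.56 against -0.06 over all genes. After miR-130a 4 rose and 13 fell (background 18.6% and 19.9%), with a median of -0.38 against -0.05. After miR-203 5 rose and 13 fell (background 22.7% and 28.8%), with a median of -0.32 against -0.09. All 3 arrays lay above the scramble arrays for 7 members and below them for 17 after miR-205 (23.6% and 27.9% of all genes), for 6 and 18 after miR-130a (24.5% and 27.3%), and for 6 and 15 after miR-203 (26.8% and 33.5%). The 3 comparisons share the AGO2-bound scramble arrays. With the replicate number as a block, PSPH (0.50) also rose after miR-130a, and ASNS (-0.41), MTHFD2 (-0.36), SLC7A11 (-0.41) and EIF4EBP1 (-0.61) also fell there, at adjusted p of 0.0013 to 0.046 by limma. SHMT2 (-0.36) and EIF4EBP1 (-0.50) then also fell after miR-203 (adjusted p = 0.019 and 0.0036, limma) and SLC7A11 (-0.83) after miR-205 (adjusted p = 0.00039, limma). These are not called in the fit without the block, which the values below come from. Of the 61 calls without the block 14 were lost when 1 array was left out: AARS1 and EPRS1 after miR-130a (adjusted p = 0.056 to 0.068, limma), CARS1, PSPH, SARS1, SLC7A11 and STC2 after miR-203 (0.052 to 0.17), and ATF3, CARS1, DDIT3, NARS1, PSAT1, SARS1 and SLC3A2 after miR-205 (0.0501 to 0.17).

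**Figure D4:**
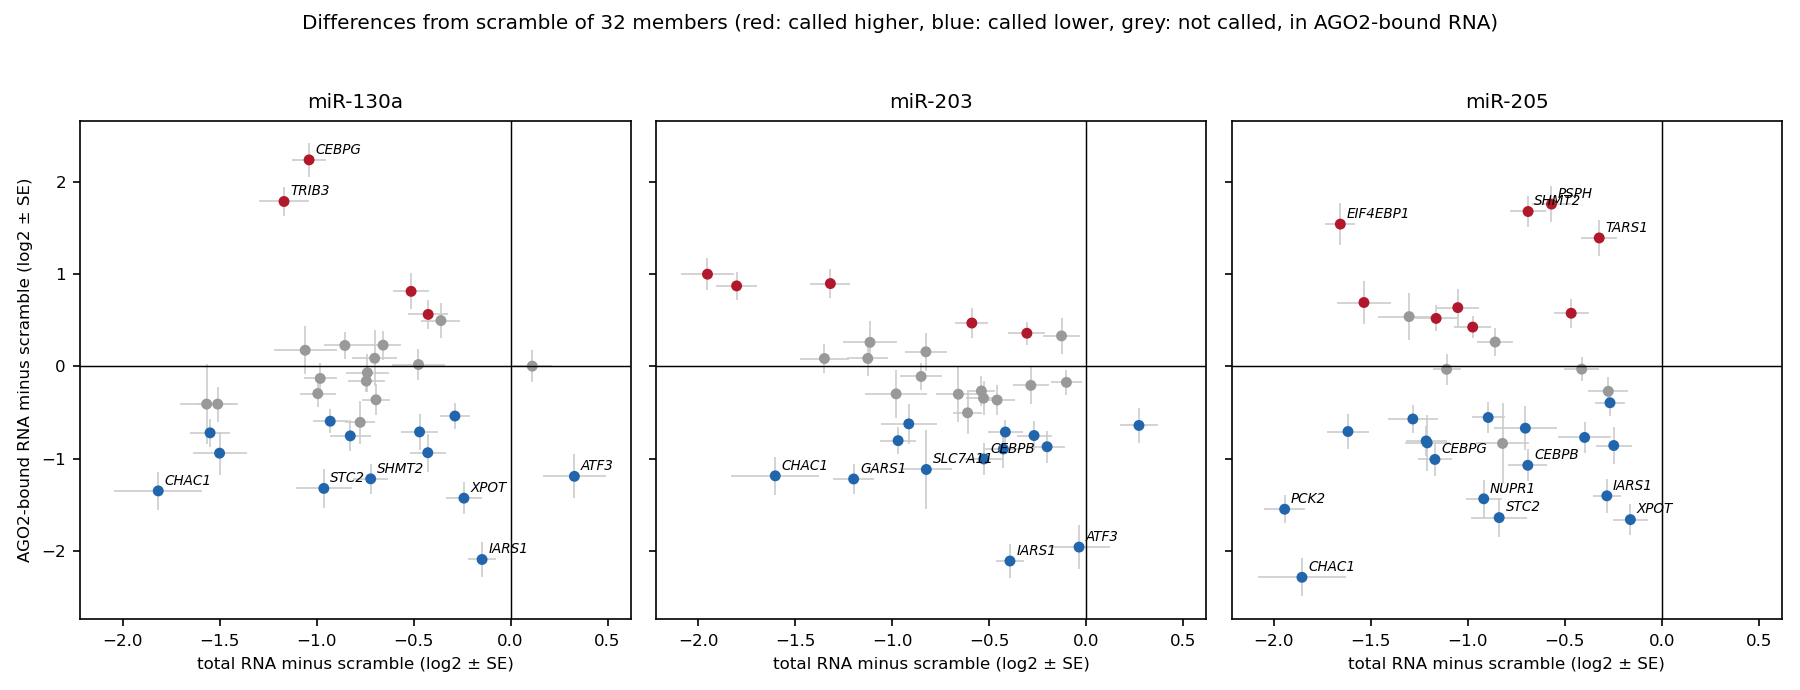
Log2 difference from scramble in AGO2-bound RNA (y axis) against total RNA (x axis) for the 32 members after each microRNA, with bars of 1 SE. Red points rose, blue points fell and grey points were not called in AGO2-bound RNA. The points spread from -2.28 to 2.24 on the y axis while nearly all lie left of 0 on the x axis, and CEBPG and TRIB3 after miR-130a stand at the top.

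After miR-130a the largest rises in AGO2-bound RNA were regulators. CEBPG, a C/EBP partner of ATF4 (204203_at), read 8.14, 8.83 and 8.15 against 6.16, 6.08 and 6.16 after scramble, and rose by 2.24 ± 0.18 (4.72-fold, adjusted p = 4.6e-07, limma). TRIB3 read 10.04, 9.79 and 9.65 against 7.93, 7.98 and 8.21, and rose by 1.79 ± 0.15 (3.45-fold, adjusted p = 7.4e-07, limma). The groups of both genes were far apart, and both lay lower than scramble in total RNA from the same transfection, at -1.04 ± 0.088 and -1.17 ± 0.13. TARS1, the threonyl ligase (201263_at), read 8.68, 8.91 and 9.01 against 8.15, 7.71 and 8.30 and rose by 0.81 ± 0.20 (adjusted p = 0.0046, limma). AARS1 (201000_at) read 9.63, 9.49 and 9.44 against 8.91, 8.73 and 9.22 and rose by 0.56 ± 0.16 (adjusted p = 0.013), though without AGO2-bound scramble replicate 2 the difference was 0.45 with an adjusted p of 0.068 by limma.

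The falls after miR-130a were led by a tRNA ligase and the tRNA export factor. IARS1 (204744_s_at) read 9.22, 9.36 and 9.64 against 11.18, 11.69 and 11.62 after scramble, a fall of -2.09 ± 0.19 (4.26-fold, adjusted p = 1e-06, limma). XPOT (212160_at) read 9.21, 9.08 and 9.31 against 10.53, 10.83 and 10.52, a fall of -1.43 ± 0.17 (adjusted p = 1.8e-05, limma). Neither gene was called in total RNA after miR-130a. CHAC1 read 8.46, 8.70 and 8.71 against 9.71, 10.08 and 10.12 (-1.35 ± 0.21, adjusted p = 0.00015, limma), and STC2, a secreted stress glycoprotein (203438_at), read 5.40, 4.53 and 4.68 against 6.10, 6.20 and 6.26 (-1.32 ± 0.21, adjusted p = 0.00024, limma). In total RNA these genes differed by -1.82 ± 0.23 and -0.96 ± 0.14.

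After miR-203 the rises were smaller. SLC7A1 (212295_s_at) read 9.76, 9.72 and 9.88 against 8.59, 8.77 and 9.00 after scramble and rose by 1.00 ± 0.17 (adjusted p = 0.00026, limma), while in total RNA it had the largest difference of any member after miR-203, -1.95 ± 0.14. AARS1 read 9.64, 9.80 and 10.11 against 8.91, 8.73 and 9.22 and rose by 0.90 ± 0.16 (adjusted p = 0.00037, limma). PCK2 read 7.86, 8.25 and 7.77 against 7.06, 6.92 and 7.29 and rose by 0.87 ± 0.15 (adjusted p = 0.0003, limma). These 3 genes lay apart from scramble on every array, upward in AGO2-bound and downward in total RNA. SARS1 read 8.02, 8.35 and 8.17 against 7.67, 7.53 and 7.93 and rose by 0.47 ± 0.17 (adjusted p = 0.028, limma). Its call was lost without miR-203 replicate 2 (0.39) or 3 (0.47) or scramble replicate 1 (0.45) or 2 (0.38), at adjusted p of 0.057 to 0.12 by limma.

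IARS1 again fell most after miR-203. It read 9.22, 9.40 and 9.55 against 11.18, 11.69 and 11.62 (-2.11 ± 0.19, 4.31-fold, adjusted p = 7e-07, limma). ATF3, a stress-induced partner and repressor in the same family (202672_s_at), read 4.44, 4.53 and 5.08 against 6.14, 6.58 and 7.21 (-1.96 ± 0.24, adjusted p = 1.5e-05, limma). In total RNA ATF3 differed by -0.04 ± 0.16 in the same transfection. GARS1 read 10.91, 11.05 and 11.35 against 12.11, 12.40 and 12.45 (-1.22 ± 0.17, adjusted p = 4.2e-05, limma), and CHAC1 read 8.64, 8.84 and 8.88 against 9.71, 10.08 and 10.12 (-1.19 ± 0.21, adjusted p = 0.00032, limma). For GARS1 the total RNA difference was nearly the same size, -1.20 ± 0.11. ATF4 itself fell here by -0.80 ± 0.15 (adjusted p = 0.00052, limma) and was not called after miR-130a (-0.29 ± 0.15) or miR-205 (0.26 ± 0.15).

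After miR-205, whose arrays have the same lowest value as scramble, the rises included serine enzymes. PSPH (205048_s_at) read 10.05, 10.02 and 9.63 against 8.46, 8.11 and 7.85 after scramble and rose by 1.76 ± 0.19 (3.38-fold, adjusted p = 5.3e-06, limma), but another PSPH probe set differed by -0.39, so the probe sets disagree. SHMT2 (214096_s_at) read 11.50, 11.42 and 10.95 against 9.61, 9.75 and 9.48 and rose by 1.68 ± 0.17 (3.2-fold, adjusted p = 2e-06, limma). EIF4EBP1 read 10.33, 10.01 and 9.54 against 8.69, 8.41 and 8.16 and rose by 1.54 ± 0.23 (2.91-fold, adjusted p = 9.2e-05, limma), in the transfection where its total RNA lay 3.16-fold under scramble. TARS1 read 9.05, 9.64 and 9.64 against 8.15, 7.71 and 8.30 and rose by 1.39 ± 0.20 (2.63-fold, adjusted p = 5.4e-05, limma). All 4 lay above every scramble array in AGO2-bound RNA and below every scramble array in total RNA.

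CHAC1, XPOT, STC2 and PCK2 fell most after miR-205. CHAC1 read 7.25, 7.60 and 8.20 against 9.71, 10.08 and 10.12 (-2.28 ± 0.21, 4.87-fold, adjusted p = 9.1e-07, limma). XPOT read 8.90, 8.63 and 9.36 against 10.53, 10.83 and 10.52 (-1.66 ± 0.17, adjusted p = 3.3e-06, limma), where its total RNA differed by -0.16 ± 0.091. STC2 read 4.83, 4.28 and 4.54 against 6.10, 6.20 and 6.26 (-1.64 ± 0.21, adjusted p = 2.9e-05, limma). PCK2 read 5.58, 5.47 and 5.58 against 7.06, 6.92 and 7.29 (-1.55 ± 0.15, adjusted p = 2e-06, limma), opposite to its rise after miR-203. Whether the 3 microRNAs differ from each other was not tested.

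Across the 3 microRNAs, 7 of 32 members fell in AGO2-bound RNA each time, where 6.96% of all tested genes did: ATF3, CHAC1, GARS1, IARS1, NUPR1, STC2 and XPOT. For STC2 after miR-203 the fall (-0.62 ± 0.21) became 0.42 with the mean of its probe sets, and it lost its call without miR-203 replicate 2 (-0.53) or 3 (-0.60) or scramble replicate 2 (-0.62) or 3 (-0.58). ATF3 after miR-205 (-0.67 ± 0.24) lost its call without miR-205 replicate 1 (-0.64), 2 (-0.74) or 3 (-0.63) or scramble replicate 2 (-0.70) or 3 (-0.39). No member rose in all 3, where 1.65% of all genes did. Called both ways were 9 of 32, where 12.7% of all genes were: CEBPG, DDIT3, PCK2, PSPH, SARS1, SHMT2, SLC7A1, TRIB3 and YARS1. Some of these calls were lost when 1 array was left out, namely SARS1 after miR-203 and miR-205, DDIT3 after miR-205 and PSPH after miR-203. Another PSPH probe set differed by -0.39 after miR-205. With the mean of its probe sets SLC7A1 differed by -0.25 after miR-205 and was not called. MTHFD2 and SLC1A5 were called in none without the block, as were 21.8% of all genes. Their differences were -0.36 to -0.03 for MTHFD2 and -0.30 to 0.54 for SLC1A5. By role, the 4 transporters had 0 rises and 0 falls after miR-130a and 1 of each with either of the other microRNAs. The 10 regulators had 2 rises and 6 falls after miR-205, 0 and 6 after miR-203 and 2 and 5 after miR-130a. These counts stand beside the shares of all genes given above for each microRNA (20.4% and 23.7% for miR-205, 22.7% and 28.8% for miR-203, 18.6% and 19.9% for miR-130a). CEBPG itself fell after miR-205 (-1.01 ± 0.18, adjusted p = 0.00046, limma).

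The comparison of AGO2-bound with total RNA within a transfection shows which members are over- or under-represented in the RNA recovered with AGO2. This is relative to all other genes on the array, since equal masses of RNA were used. The samples hold no recovery with a control antibody, so RNA carried along without AGO2 cannot be told apart from RNA bound to it. Most genes differed between the 2 kinds of RNA. These comparisons reuse the total RNA arrays on which ASNS, DDIT3, TRIB3, ATF4, CHAC1, PCK2 and SLC7A11 were chosen. The whole list was made with earlier results of these data known. The calls of all members here are therefore a description, given with no p-value. In scramble cells 9 of 32 members were higher in AGO2-bound RNA and 16 lower (limma, adjusted p under 0.05), where 35.1% and 37.8% of all genes were. After miR-130a 13 were higher and 17 lower (33.3% and 38.3%), after miR-203 11 and 15 (34.7% and 37.2%), and after miR-205 10 and 11 (36.6% and 36.1%). The members' medians were -0.24, -0.32, -0.21 and 0.04, in the same order, beside -0.05, -0.08, -0.03 and -0.01 over all genes. Of these 102 calls 13 were lost when 1 array was left out, among them ATF4 and SLC1A5 after miR-205 and NUPR1 in scramble cells.

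CHAC1 was the member most over-represented with AGO2, in every transfection. Its AGO2-bound arrays lay between 7.25 and 10.12 and its total RNA arrays between 3.69 and 6.11, with no overlap. The differences were 4.05 ± 0.22 in scramble (16.6-fold), 4.52 ± 0.22 after miR-130a (22.9-fold), 4.47 ± 0.22 after miR-203 (22.2-fold) and 3.62 ± 0.22 after miR-205 (12.3-fold). So its excess in AGO2-bound over total RNA was there without any of the 3 added microRNAs. DDIT4, an inhibitor of mTORC1 (202887_s_at), read 11.15, 11.07 and 11.12 in AGO2-bound scramble against 9.16, 9.08 and 9.27 in total RNA, and its differences ran from 1.65 to 2.33. GARS1 had differences of 1.68 to 2.11 and CEBPB, another C/EBP partner (212501_at), of 0.63 to 1.10. These 4 were higher with AGO2 in all 4 transfections, as were 17.1% of all genes.

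The reverse held for 7 members, ASNS, ATF4, EPRS1, NUPR1, PSAT1, SARS1 and SLC1A5, which were lower with AGO2 in all 4 transfections, as were 16.2% of all genes. PSAT1 (220892_s_at) read 6.11, 5.40 and 6.08 in AGO2-bound scramble against 8.95, 9.25 and 9.33 in total RNA. Its differences ran from -3.31 ± 0.24 in scramble to -2.52 ± 0.24 after miR-130a. SLC1A5 read 4.95, 4.43 and 4.49 against 6.91, 7.26 and 7.16 in scramble, a difference of -2.49 ± 0.22. Its difference after miR-205, -0.65 ± 0.22, was -0.35 and no longer called without AGO2-bound miR-205 replicate 1. It was also not called with these 6 arrays fitted without the other 18. SARS1 ran from -1.76 ± 0.13 in scramble to -0.70 ± 0.13 after miR-203. ATF4 read 8.83, 8.70 and 8.95 in AGO2-bound scramble against 10.21, 10.31 and 10.40 in total RNA, a difference of -1.48 ± 0.13. It differed by -1.31 ± 0.13 after miR-203 and -0.78 ± 0.13 after miR-130a, and after miR-205 by -0.35 ± 0.13, which was -0.22 and no longer called without AGO2-bound miR-205 replicate 1. NUPR1, a small stress-induced chromatin protein, differed by -0.41 ± 0.17 in scramble, where its call was lost without AGO2-bound scramble replicate 1 (-0.20) or total RNA scramble replicate 1 (-0.38) or 3 (-0.39), and by -0.87 to -0.92 after the microRNAs.

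**Figure D5:**
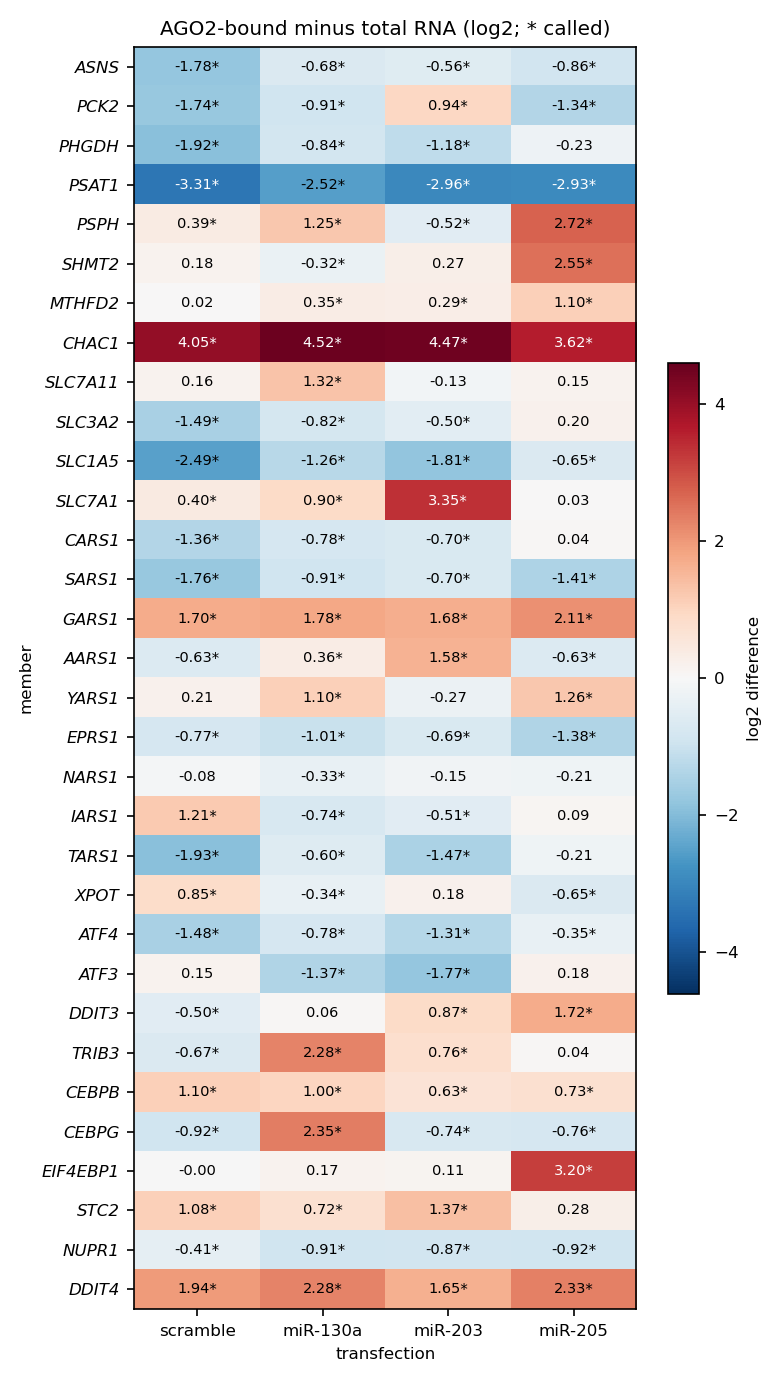
Log2 difference of AGO2-bound minus total RNA for the 32 members (rows, by role) in each transfection (columns). Red is higher with AGO2, blue lower, and a star marks a call at an adjusted p under 0.05, given as a description. CHAC1 is the reddest row and PSAT1 the bluest row in all 4.

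A further 9 members were higher with AGO2 in some transfections and lower in others, as were 20.5% of all genes: AARS1, CEBPG, DDIT3, IARS1, PCK2, PSPH, SHMT2, TRIB3 and XPOT. Some of these calls were lost when 1 array was left out, namely AARS1, SHMT2 and XPOT after miR-130a and DDIT3 and PSPH in scramble. TRIB3 went from -0.67 ± 0.14 in scramble to 2.28 ± 0.14 after miR-130a, and CEBPG from -0.92 ± 0.15 to 2.35 ± 0.15. PCK2 was lower with AGO2 in scramble (-1.74 ± 0.13), miR-130a and miR-205 and higher after miR-203 (0.94 ± 0.13). IARS1 went the other way, from 1.21 ± 0.15 in scramble to -0.51 ± 0.15 after miR-203 and -0.74 ± 0.15 after miR-130a, and was not called after miR-205 (0.09 ± 0.15). AARS1 was lower with AGO2 in scramble (-0.63 ± 0.14) and after miR-205 (-0.63 ± 0.14) and higher after miR-203 (1.58 ± 0.14) and miR-130a (0.36 ± 0.14). Outside these 9, SLC7A1 was 0.40 ± 0.16 in scramble and 3.35 ± 0.16 after miR-203 (10.2-fold). Its call in scramble was lost without AGO2-bound scramble replicate 3 (0.30) or total RNA scramble replicate 2 (0.36). EIF4EBP1 was not called in scramble, miR-130a or miR-203 and differed by 3.20 ± 0.18 after miR-205 (9.18-fold). The change of the AGO2 excess between transfections was not tested. For SLC7A11 and SLC7A1 the probe sets pointed to opposite sides in some of these comparisons: in scramble the differences of SLC7A11 ran from -1.22 to 0.16 and those of SLC7A1 from -0.06 to 0.81.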

How the data were processed

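RNA of 24 Affymetrix arrays was analysed, 3 in each of 8 groups (4 transfections, AGO2-bound and total RNA). The values the authors deposited are log2 expression per probe set, already normalized and summarized. GCRMA, RMA and R 2.9.0 were used, per the submitters' processing notes, which give no order. The members, their roles and the further gene lists were chosen with earlier results of these data known.

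Of 22277 probe sets, 19064 had 1 gene symbol, 1043 several, and 62 were controls. For each of the resulting 11963 genes the probe set with the highest mean was taken. Genes with a mean of at least 2.85, the median of all probe sets, were tested, 6782 in all. The fits were made with lmFit and eBayes (limma 3.58.1, R 4.3.3), with Benjamini-Hochberg adjustment over all tested genes and calls at an adjusted p under 0.05, and were tested on simulated data. The 12 AGO2-bound and 12 total RNA arrays were fitted apart, and all 24 for AGO2-bound against total RNA. Values on each array were printed for up to 3 members a role (total RNA, by the miR-205 difference), up to 4 called members each way (AGO2-bound RNA, by microRNA), up to 4 each way called in all 4 transfections (AGO2-bound against total RNA), and ATF4. Other genes were named where called with at least a 2-fold difference. In the report EIF2AK2, GDF15 and MANF stand for these, and further ones are under other observations. For arrays no depth applies, and their number limits the precision. Alternatives changed the filter, probe set rule, scaling, prior, threshold, arrays in the fit, replicate block and each array in turn.

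The labels number the arrays of each group 1 to 3. In AGO2-bound RNA the deviations of same-numbered arrays from their group means were compared. With scramble, miR-203 arrays correlated at 0.16 to 0.58 and miR-130a arrays at 0.11 to 0.52. With miR-205 the correlations were 0.52, -0.045 and 0.32. In total RNA the correlations with scramble were -0.098 to 0.049, and between AGO2-bound and total RNA of a transfection -0.14 to 0.19. Arrays with different numbers were not compared, so these values cannot show whether the numbers pair the arrays, and no label states it.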

Additional observations from a re-analysis of the deposited data

Results flagged for a closer look

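In 19 cases all 3 AGO2-bound arrays of a microRNA lay above all 3 AGO2-bound scramble arrays while all 3 total RNA arrays lay below all 3 total RNA scramble arrays. The same held for 6.36% of all tested genes in the miR-205 transfection, 6.94% with miR-203 and 5.26% with miR-130a. The choice of members on low total RNA largely fixed the total RNA side. The difference between the 2 kinds of RNA was not tested. Values are log2 differences from scramble.

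After miR-130a there were 6 such members. CEBPG was at 2.24 in AGO2-bound and -1.04 in total RNA, and TRIB3 at 1.79 and -1.17. TARS1 was at 0.81 and -0.51, AARS1 at 0.56 and -0.43, PSPH at 0.50 and -0.36, and YARS1 at 0.23 and -0.66. The AGO2 values of PSPH and YARS1 did not pass the threshold (adjusted p = 0.055 and 0.28, limma).

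After miR-203 there were 6, led by SLC7A1 at 1.00 and -1.95, AARS1 at 0.90 and -1.32, and PCK2 at 0.87 and -1.80. SARS1 was at 0.47 and -0.59, CARS1 at 0.36 and -0.31, and SLC3A2 at 0.16 and -0.83. The AGO2 value of SLC3A2 did not pass the threshold (adjusted p = 0.54, limma).

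After miR-205 there were 7, and all passed the threshold in AGO2-bound RNA. PSPH was at 1.76 and -0.57, SHMT2 at 1.68 and -0.69, EIF4EBP1 at 1.54 and -1.66, and TARS1 at 1.39 and -0.32. YARS1 was at 0.58 and -0.47, PHGDH at 0.52 and -1.16, and CARS1 at 0.43 and -0.98. AARS1, CARS1, PSPH, TARS1 and YARS1 each appear after more than 1 microRNA, with the same scramble arrays on both sides of the comparison. For PSPH and CARS1 this depends on the probe set. Against AGO2-bound scramble, another PSPH probe set was at -0.39 for miR-205 and 0.03 for miR-130a. Another CARS1 probe set was at 0.40 in total RNA for miR-203. Leaving out 1 array ended the CARS1 calls for miR-203 in both kinds of RNA, and its AGO2 call for miR-205. It also ended calls of AARS1 (AGO2-bound) and PSPH (total RNA) for miR-130a, and of TARS1 (total RNA) for miR-205.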

How the results depend on the processing

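Of 450 values under the alternatives 432 stayed with the value reported and 18 moved. The members called higher in total RNA after miR-203 (1, PSPH) became 0 with no filter, with the mean of all probe sets, with centred arrays, at an adjusted p under 0.01, with all 24 arrays in the fit and with the replicate number as a block, and 0 to 1 leaving out each array. The members risen in AGO2-bound RNA after miR-203 (5) were 3 at an adjusted p under 0.01 and 3 to 5 leaving out each array. With the mean of all probe sets the median of AGO2-bound minus total RNA was -0.38 after miR-203 (from -0.21, and -0.40 to -0.15 leaving out each array) and -0.46 in scramble (from -0.24), where it was -0.08 with no filter. After miR-205 that median changed sign, from 0.04 to -0.13 with centred arrays (all genes -0.18) and from -0.065 to 0.065 leaving out each array. The same averaging reversed CARS1 in total RNA after miR-203 (0.046) and STC2 in AGO2-bound RNA after miR-203 (0.42, adjusted p = 0.067, limma), 2 of the 3696 values of single members, of which 194 others lost their call. With the replicate block the counts were 5 higher and 17 lower (miR-130a), 5 and 15 (miR-203) and 9 and 18 (miR-205) in AGO2-bound RNA. It ended no other call of a member. Dim transcripts are compressed near the lowest values, and 3 arrays a group limit what could be called.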

Other observations

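Genes near the members in the pathway also differed between AGO2-bound and total RNA, as most tested genes did. Of all tested genes 17.1% were called higher and 16.2% lower with AGO2 in all 4 transfections. TRIB1, a relative of TRIB3, was higher with AGO2 by 3.18 to 4.71 on the log2 scale over the 4 transfections. CEBPD, a C/EBP factor, was higher by 3.34 to 4.76 and VLDLR, a lipoprotein receptor, by 2.34 to 3.64. DNAJB9, a chaperone of the endoplasmic reticulum, was higher by 3.75 to 4.71. Each was called in all 4. The calls between the 2 kinds of RNA are a description here too, since these lists were made with earlier results known. CBS, which makes cystathionine, was lower with AGO2 by -1.10 to -3.44. Also lower in every transfection were VARS1, a cytosolic tRNA ligase, by -1.12 to -1.83 and NARS2, a mitochondrial one, by -1.49 to -2.09. In AGO2-bound RNA GADD45A, a growth arrest gene, rose by 2.69 ± 0.25 after miR-130a (adjusted p = 1.7e-06, limma) and 2.25 ± 0.25 after miR-205 (adjusted p = 7.1e-06, limma). HARS1, the histidyl ligase, rose by 2.07 ± 0.14 after miR-203 (adjusted p = 7.7e-08, limma), as did CTH, which splits cystathionine, by 1.91 ± 0.13 (adjusted p = 7.7e-08, limma), while in total RNA CTH was at -1.14 ± 0.20. EIF2S2, a subunit of eIF2, rose by 2.21 ± 0.17 after miR-205 (adjusted p = 1.8e-07, limma).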
